A study of Mus musculus with 30 samples.

Results

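The 9 genes described here, Glul, Oat, Slc1a2, Rhbg, Axin2, Lgr5, Rnf43, Znrf3 and Tbx3, belong to the pericentral zone of the liver lobule or to the Wnt/β-catenin signal that maintains that zone. They were chosen by name, as the rows of the deposited count table that carry these symbols, and each of the 9 matched 1 row among 55450 genes. All 9 are protein-coding and had enough counts to be tested in each of 3 experiments.

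Liver mRNA of male mice on a C57BL/6N background fed a diet rich in fat, cholesterol and fructose (HFCFD), which induces metabolic dysfunction–associated steatohepatitis (MASH), was sequenced in 5 Cebpa fl/fl and 5 knockout mice per experiment, 1 library per mouse, 30 libraries in 6 groups. In HFCFD2W, mice were fed for 2 weeks, and the knockout mice were CebpaΔHep, in which an albumin-cre transgene removes the transcription factor CEBPA from hepatocytes constitutively. In HFCFD8W+T10D and HFCFD12W+T10W, the knockout mice were CebpaΔHep,ERT2, in which albumin-ERT2-cre acts only after tamoxifen. The labels give 8 weeks of HFCFD with 10 days of tamoxifen for the former and 12 weeks followed by 10 weeks for the latter. The paper describes the latter mice as fed HFCFD for 22 weeks in total, with tamoxifen in the last 10 weeks. It likewise defines T10D as tamoxifen in the last 10 days. The fl/fl mice carried the same floxed alleles without Cre, and the labels give them the diet and tamoxifen of their experiment. The paper describes the deletion as hepatocyte-specific, and whether other liver cells kept the gene cannot be read from libraries of whole liver. The ages of these mice are not given in the sources used here. The series description calls the experiments different batches of mice, so that Cre line, feeding time, tamoxifen and batch of mice cannot be told apart.

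Library totals ran from 7996123 to 10257347 counts, and no library stood apart from its group, with a median correlation to its group mates of 0.903 to 0.939. Cebpa mRNA in knockout livers was 2.68%, 11.9% and 18.6% of the fl/fl mean in the 3 experiments, in the order above. The knockout and fl/fl mice did not overlap in it, at 3.43 to 5.68 against 149 to 193 CPM, 11.1 to 25.1 against 121 to 156 CPM, and 18.7 to 23.8 against 82.5 to 135 CPM. The hepatocyte markers Alb, Apoa1, Apob, Ttr and Trf summed to at least 64686 CPM in each library. In HFCFD12W+T10W they summed to 98376 to 122390 CPM in fl/fl livers and 64686 to 72522 CPM in knockout livers. Of the 5, only Alb was called lower there and none higher, and their median log2 fold change was -0.03. Alb made up most of the sum in fl/fl livers of HFCFD2W, at a mean of 84748 CPM within sums of 115500 to 149730 CPM. CPM are counts relative to the library total after TMM scaling, which assumes that most genes do not change, over all 30 libraries. In knockout livers of HFCFD12W+T10W 5 of 5 cholangiocyte markers rose, with sums of 3.22 to 5.17 CPM in fl/fl against 34.8 to 61.3 CPM. So did 7 of 7 stellate cell and fibroblast markers, with sums of 293 to 366 CPM against 1037 to 1284 CPM. In HFCFD8W+T10D Alb was called lower (-0.94 on the log2 scale), as was the endothelial marker Stab2 (-0.52), while 2 of 4 tested cholangiocyte markers (Epcam at 2.57 and Sox9 at 1.00), 2 of 7 stellate cell and fibroblast markers (Col1a1 at 1.33 and Col3a1 at 1.18) and 3 of 5 macrophage markers rose. In HFCFD2W 2 of 5 macrophage markers rose and 0 of the other markers tested were called. No marker was at 0 throughout a group. The part of these shifts in the values below was not tested, and in bulk liver fewer cells of a type and less RNA per cell cannot be told apart.

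Hepatocytes along the lobule divide their work between the portal inflow and the central vein. Urea synthesis from ammonia dominates around the portal tract, while a thin layer of pericentral hepatocytes captures the remaining ammonia as glutamine. Wnt ligands and R-spondins from central vein endothelium reach these cells, stabilize β-catenin and drive TCF/LEF-dependent genes, among them Glul, Axin2, Lgr5, Rnf43 and Tbx3. R-spondin bound to an LGR receptor keeps the ubiquitin ligases RNF43 and ZNRF3 from removing Frizzled receptors, and AXIN2 feeds back on the pathway as part of the β-catenin destruction complex.

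In GENCODE M21 (GRCm38), the annotation whose identifiers the files carry, Glul lies on chromosome 1 at 153899944-153909723, Slc1a2 on chromosome 2 at 102658659-102790784, Rhbg on chromosome 3 at 88242874-88254709, Tbx3 on chromosome 5 at 119670669-119684724, Oat on chromosome 7 at 132557478-132576398 and Lgr5 on chromosome 10 at 115450311-115587780. Chromosome 11 holds Znrf3 at 5276324-5444847, Rnf43 at 87662722-87735539 and Axin2 at 108920349-108950783. RefSeq promoter sequence (build GRCm38.p6) was at hand for 5 of the 9 genes. The 250 bases before each start were searched on both strands for the TCF/LEF motifs CTTTGAT and CTTTGAA, held by 3.21% and 4.46% of 32851 such windows, and for the C/EBP motif TTGCNNAA, held by 9.56%. Shown 5′ to 3′ are the windows of Oat (chr7:132576399-132576648, minus strand), lower in all 3 experiments, of Axin2 (chr11:108920099-108920348, plus strand), the reference Wnt feedback gene, and, outside annotated exons, of Slc1a2 (chr2:102706188-102706355, plus strand). Capitals mark motif matches.
Oat: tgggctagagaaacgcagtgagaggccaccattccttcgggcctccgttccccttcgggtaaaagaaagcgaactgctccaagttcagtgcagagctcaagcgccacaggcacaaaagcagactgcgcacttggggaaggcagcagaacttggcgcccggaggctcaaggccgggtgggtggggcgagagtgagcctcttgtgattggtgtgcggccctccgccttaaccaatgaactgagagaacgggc
Axin2: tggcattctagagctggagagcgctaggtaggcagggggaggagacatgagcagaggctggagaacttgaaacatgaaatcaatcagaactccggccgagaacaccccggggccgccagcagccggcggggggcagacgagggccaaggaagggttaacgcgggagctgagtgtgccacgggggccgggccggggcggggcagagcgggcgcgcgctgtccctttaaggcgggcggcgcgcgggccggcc
Slc1a2: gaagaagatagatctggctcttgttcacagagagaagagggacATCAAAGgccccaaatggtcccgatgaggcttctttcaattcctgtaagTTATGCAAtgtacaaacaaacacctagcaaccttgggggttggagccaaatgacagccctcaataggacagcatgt

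Among the 6 promoters of these 5 genes, matches were found only in that of Slc1a2, with the TCF/LEF motif on the minus strand 207 bases before the RefSeq start and the C/EBP motif on the minus strand 158 bases before it. This start is not the first base of the GENCODE gene, which begins upstream at 102658659. The printed window, from 102706188, thus lies inside the gene, and use of this start in liver was not tested. A match is a run of letters and not a shown binding site.

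Levels per transcript length, as the authors' TPM, ordered the 9 genes widely in fl/fl livers of HFCFD2W. Glul was highest at 511 ± 82.8 TPM (SD, n = 5 mice), followed by Oat at 306 ± 41.5 TPM, Slc1a2 at 40.8 ± 6.38 TPM and Rhbg at 11.2 ± 2.21 TPM. Rnf43 had 5.87 ± 1.19 TPM and Tbx3 3.02 ± 0.70 TPM. Znrf3, Lgr5 and Axin2 lay at 1.29 ± 0.22, 0.99 ± 0.21 and 0.98 ± 0.36 TPM, the last 2 within their spread. Glul, Oat and Slc1a2 were measured with 915 to 17225 counts per library and Rhbg with 83 to 600. The other 5 genes had from 2 counts, of Lgr5 in 1 knockout library of HFCFD8W+T10D, to 187 counts, of Rnf43 in an fl/fl library of HFCFD2W.

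**Figure D1:**
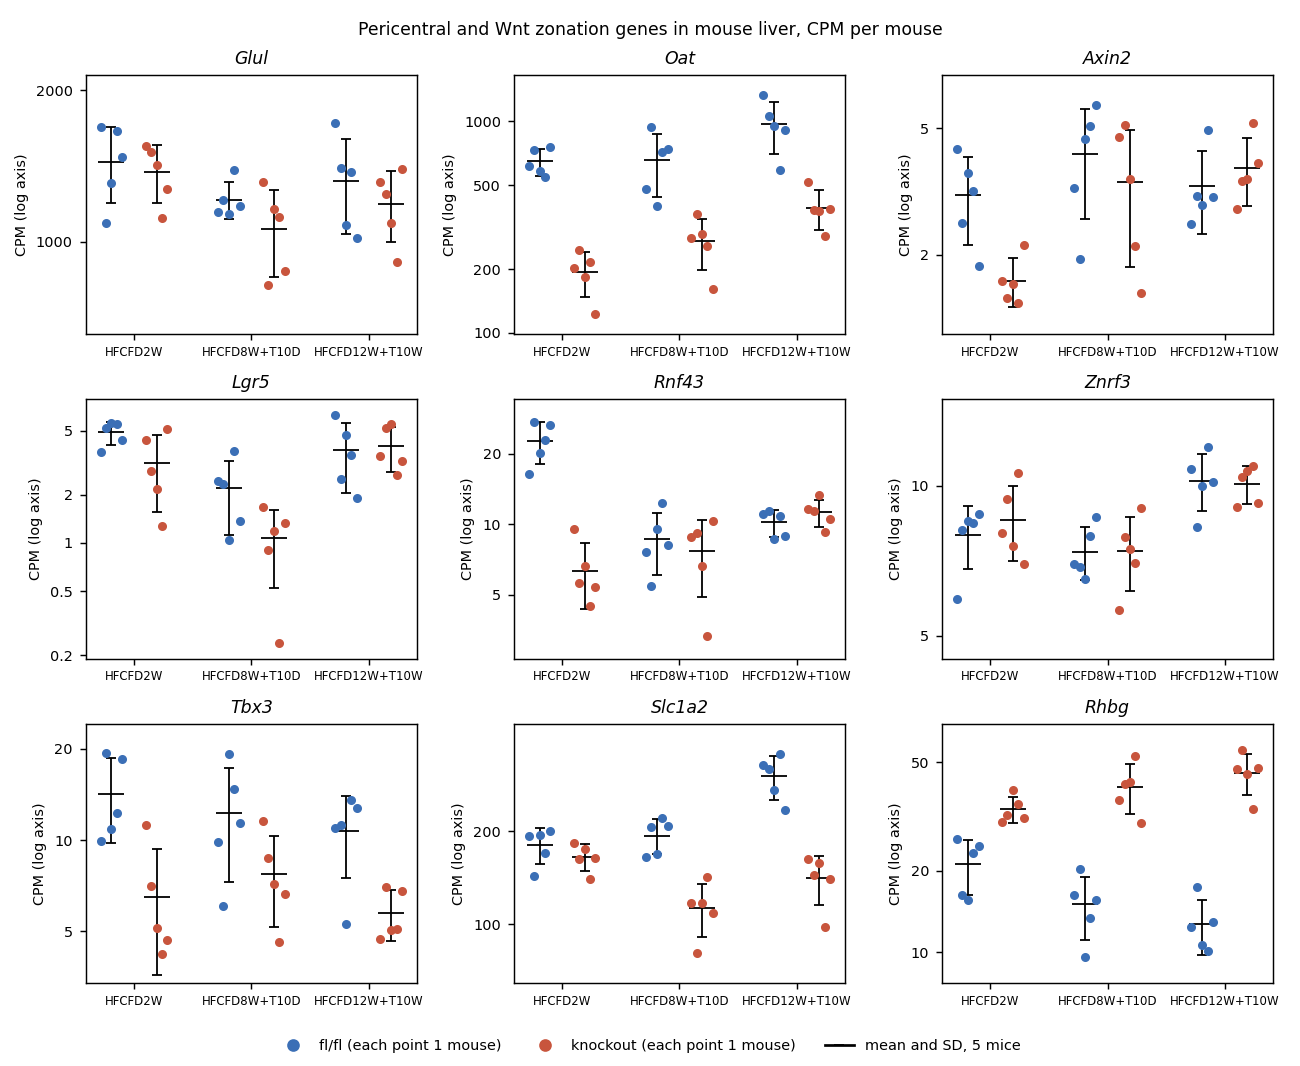
CPM of each of the 9 genes (log axis) in each mouse of the 6 groups, with the mean and SD of 5 mice as black bars. Oat is lower and Rhbg higher in knockout than in fl/fl livers of each experiment with no overlap, Slc1a2 separates in the tamoxifen-treated experiments, Rnf43 separates in HFCFD2W, and the Glul groups overlap throughout.

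To see how loss of hepatocyte CEBPA affected these genes, genotypes were compared within each experiment by edgeR's quasi-likelihood test, and a gene counts as called where the Benjamini-Hochberg adjusted p over all genes tested lay under 0.05. In HFCFD2W, 1 of the 9 was called higher and 4 lower, where 8.6% and 8.09% of 11068 genes were called higher and lower. In HFCFD8W+T10D, 1 was called higher and 2 lower, beside 10.3% and 6.85% of 11990 genes. In HFCFD12W+T10W, 1 was called higher and 3 lower, beside 27.4% and 23.8% of 12463 genes, so that the count there was near the background. The median log2 fold change of the 9 genes was -0.64, -0.28 and 0.02 in the 3 experiments, and that of all genes tested was 0.01 in each. With plain library totals in place of TMM scaling, the median of all genes was 0.19 and 0.38 in the tamoxifen-treated experiments, and the share of calls that were higher went from 59.99% to 84.1% and from 53.5% to 88.0%. TPM are likewise scaled to the whole library without TMM. Results in TPM and with plain library totals are therefore not independent of each other. Requiring a fold over 2 as well left 0 higher and 3 lower in HFCFD2W, beside 1.69% and 1.38% of all genes. It left 1 and 1 after 10 days of tamoxifen, beside 4.09% and 2.01%, and 1 and 2 after 10 weeks, beside 14.3% and 3.47%. Every mouse of the knockout group lay above every fl/fl mouse for 1 gene and below for 2 in each experiment, while 6.33% and 6.13%, 6.01% and 5.5%, and 19.6% and 19.5% of all genes did so in the respective experiments.

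**Figure D2:**
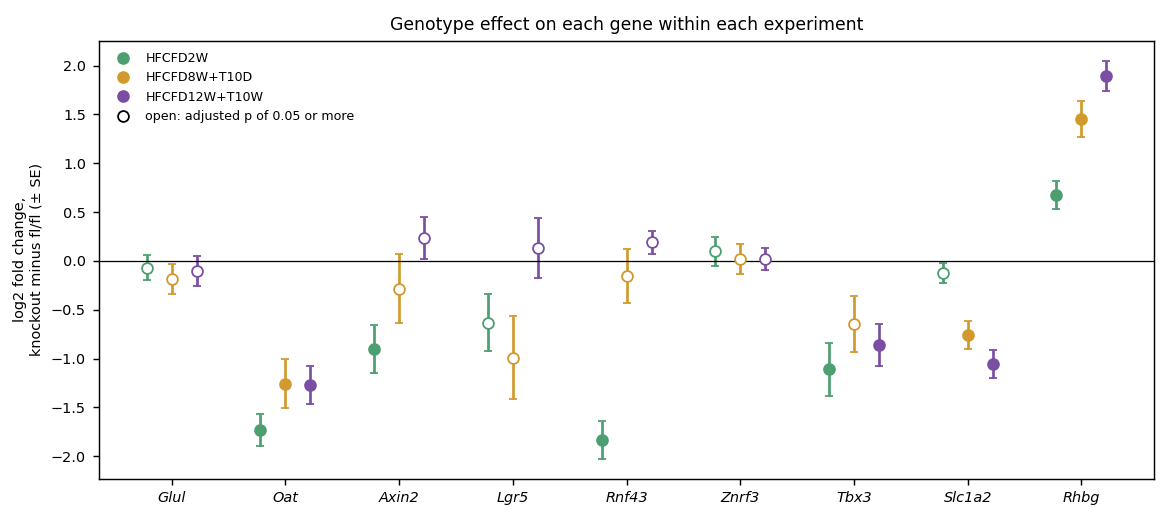
Log2 fold change of knockout against fl/fl livers (± SE from edgeR, 5 mice per group) for each gene in each experiment, with filled points for an adjusted p under 0.05. Oat lies between -1.73 and -1.26 in all 3 experiments and Rhbg between 0.67 and 1.89. Rnf43 lies at -1.83 in HFCFD2W but near 0 in the others.

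Glul encodes glutamine synthetase, the enzyme that fixes ammonia onto glutamate and the classical marker of the pericentral layer. Its fl/fl values in HFCFD2W were 1689.7, 1088, 1311, 1659 and 1477 CPM, and its knockout values 1555, 1507, 1424, 1117 and 1276 CPM. The genotypes overlapped there and in the other experiments, where fl/fl livers ran from 1139 to 1392 CPM and from 1020.1 to 1721 CPM and knockout livers from 820.03 to 1316 CPM and from 913 to 1394 CPM. No genotype difference was called: the log2 fold changes were -0.07 (95% interval -0.34 to 0.21), -0.18 (-0.51 to 0.14) and -0.10 (-0.43 to 0.22), with edgeR adjusted p of 0.754, 0.455 and 0.595. Their sign turned to 0.06, 0.00 and 0.27 on the TPM scale, and to 0.27 with plain library totals in HFCFD12W+T10W. The group means, from 1445 ± 251 CPM in fl/fl livers of HFCFD2W down to 1059 ± 207 CPM in knockout livers of HFCFD8W+T10D, overlapped at every step of their order.

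Slc1a2 encodes the glutamate transporter GLT-1, which in liver marks the same pericentral cells as Glul and brings in the substrate of glutamine synthetase. In HFCFD2W its values were 193, 143, 195, 169.85 and 200.25 CPM in fl/fl and 183, 162, 176, 139.78 and 163 CPM in knockout livers, which overlapped. The log2 fold change was -0.13 ± 0.10 (SE), with an adjusted p of 0.427 in edgeR and the opposite sign, 0.14, in TPM.

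In HFCFD8W+T10D, fl/fl livers had 165, 206, 168, 219.95 and 208 CPM of Slc1a2 and knockout livers 117, 80.7, 118, 142 and 109 CPM. In HFCFD12W+T10W the values were 326, 318, 271, 355 and 234 CPM against 163, 144, 158, 98.1 and 140.42 CPM. All knockout values lay below all fl/fl values in both tamoxifen-treated experiments. The log2 fold change was -0.76 ± 0.14 (adjusted p = 0.00367, edgeR) in the former and -1.05 ± 0.14 (adjusted p = 6.28e-05, edgeR), or 2.07-fold lower, in the latter. On the log2(TPM + 0.5) scale the former was -0.44 and no longer called (adjusted p = 0.115, limma), and the latter was -0.91 and still called (adjusted p = 0.000363, limma). With plain library totals the latter was -0.68 (adjusted p = 0.00111, edgeR). TPM divides by the effective length that RSEM estimates from the isoforms present. For Slc1a2 in HFCFD12W+T10W this length ran from 4405 to 4825 bases in fl/fl and from 5009 to 6002 bases in knockout livers, without overlap. In HFCFD8W+T10D it overlapped, at 3276 to 4240 bases in fl/fl and 2717 to 4562 bases in knockout livers. A longer length lowers TPM at equal counts. In HFCFD12W+T10W the longer lengths were those of knockout livers, while the log2 fold change was less negative in TPM (-0.91) than in edgeR (-1.05). TPM also leave out TMM scaling, whose factors there ran from 0.961 to 1.03 in fl/fl and from 1.29 to 1.38 in knockout livers. The parts of length and of scaling in the TPM results were not tested.

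Oat encodes ornithine aminotransferase, a mitochondrial enzyme that turns ornithine toward glutamate in pericentral hepatocytes. It was lower in knockout livers of all 3 experiments. Its fl/fl values in HFCFD2W were 618, 731, 579.53, 546 and 759 CPM, and its knockout values 203, 246, 182, 216 and 123 CPM. The highest knockout mouse thus lay under the lowest fl/fl mouse.

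In HFCFD8W+T10D, Oat had 476, 941, 399, 719.58 and 744 CPM in fl/fl and 279, 366, 293, 256 and 162 CPM in knockout livers. In HFCFD12W+T10W it had 1335, 1058, 949, 590.16 and 907 CPM in fl/fl and 519, 379, 377, 285 and 387 CPM in knockout livers. Genotypes did not overlap in either, although fl/fl mice spread over more than their HFCFD2W counterparts. The log2 fold changes were -1.73 ± 0.16 (adjusted p = 2.55e-05), -1.26 ± 0.25 (adjusted p = 0.00526) and -1.27 ± 0.20 (adjusted p = 0.00017) in edgeR, which is 3.33-, 2.39- and 2.41-fold lower. These calls held in each of 10 alternative fits and 10 fits with a mouse left out per experiment, with log2 values from -1.84 to -0.88. A long gene model of Fgfr2 spans Oat on the same strand, but its 57 to 326 counts per library are few beside the 915 to 11236 counts of Oat.

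Rhbg encodes an ammonium transporter of the Rhesus glycoprotein family, found on pericentral hepatocytes. It moved the other way from Oat and Slc1a2. Its values in HFCFD2W were 26.1, 16.3, 15.6, 23.2 and 24.6 CPM in fl/fl and 30.3, 32.0, 39.6, 35.1 and 31.2 CPM in knockout livers. In HFCFD8W+T10D they were 16.2, 20.3, 9.62, 13.4 and 15.6 CPM against 36.4, 41.8, 42.5, 52.9 and 29.8 CPM. In HFCFD12W+T10W they were 12.4, 17.4, 10.7, 10.1 and 12.9 CPM against 47.3, 55.4, 45.2, 33.8 and 47.6 CPM.

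Each knockout mouse exceeded each fl/fl mouse of its experiment for Rhbg. The log2 fold changes were 0.67 ± 0.14 (adjusted p = 0.0066), 1.45 ± 0.19 (adjusted p = 0.000291) and 1.89 ± 0.16 (adjusted p = 1.32e-06) in edgeR, or 1.59-, 2.73- and 3.72-fold higher. The gene model Gm38392 overlaps Rhbg on the same strand, and RSEM divided reads between them, giving Gm38392 between 0 and 117 counts per library. With both summed, a choice made after seeing the data, the log2 fold changes were 0.70, 1.47 and 1.75, and all 3 calls held.

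Rnf43, a ubiquitin ligase that removes Frizzled receptors from the cell surface and is itself a Wnt target, fell in HFCFD2W only among the 3 comparisons. There its values were 16.5, 27.5, 20.2, 23.04 and 26.5 CPM in fl/fl livers and 9.58, 5.61, 6.62, 4.47 and 5.37 CPM in knockout livers, without overlap. The log2 fold change was -1.83 ± 0.19 (adjusted p = 5.36e-05, edgeR), or 3.57-fold lower. In HFCFD8W+T10D fl/fl livers had 5.43 to 12.4 CPM and knockout livers 3.32 to 10.4 CPM. The ranges of HFCFD12W+T10W were 8.62 to 11.4 CPM and 9.30 to 13.3 CPM. The genotypes overlapped in these, with log2 fold changes of -0.15 ± 0.28 (adjusted p = 0.758) and 0.19 ± 0.12 (adjusted p = 0.215) in edgeR. The former became 0.06 with plain library totals, and the latter was called higher with plain library totals (0.56, adjusted p = 0.00186, edgeR) and in TPM (0.50, adjusted p = 0.00104, limma). Both settings leave out TMM scaling.

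Znrf3, the paralog of Rnf43 with the same action on Frizzled, showed no called genotype difference with TMM scaling. Its groups overlapped in each experiment, at 5.94 to 8.80 CPM in fl/fl and 6.98 to 10.6 CPM in knockout livers of HFCFD2W, 6.49 to 8.66 CPM and 5.62 to 9.02 CPM in livers of HFCFD8W+T10D, and 8.27 to 11.9 CPM against 9.07 to 10.9 CPM in those of HFCFD12W+T10W. The log2 fold changes were 0.10 (95% interval -0.22 to 0.42), 0.02 (-0.32 to 0.35) and 0.02 (-0.22 to 0.26). With plain library totals that of HFCFD12W+T10W was 0.39 and called higher (adjusted p = 0.00582, edgeR), as it was in TPM, and in 3 other alternatives its sign was negative.

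Tbx3 encodes a T-box transcription factor that acts downstream of β-catenin in pericentral hepatocytes. In HFCFD2W it had 9.94, 19.3, 10.8, 12.3 and 18.4 CPM in fl/fl livers and 11.2, 7.07, 5.14, 4.22 and 4.70 CPM in knockout livers. In HFCFD12W+T10W it had 10.9, 11.2, 5.28, 13.5 and 12.7 CPM against 4.71, 7.02, 5.07, 5.11 and 6.80 CPM. In both, most knockout mice lay under the fl/fl mice, and a single mouse caused the overlap, a high knockout mouse in the former and a low fl/fl mouse in the latter.

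The log2 fold change of Tbx3 was -1.11 ± 0.27 (adjusted p = 0.0146, edgeR) in HFCFD2W and -0.86 ± 0.22 (adjusted p = 0.00546, edgeR) in HFCFD12W+T10W. It was -0.65 ± 0.29 and not called (adjusted p = 0.145, edgeR) in HFCFD8W+T10D, where fl/fl livers had 6.08 to 19.2 CPM and knockout livers 4.63 to 11.5 CPM. The call in HFCFD12W+T10W was lost with plain library totals (-0.49, adjusted p = 0.0794, edgeR) and in TPM (-0.42, adjusted p = 0.142, limma), and that in HFCFD2W was lost in TPM (-0.68, adjusted p = 0.0514, limma).

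Axin2, whose product scaffolds β-catenin degradation, was called lower in HFCFD2W, with 4.30, 2.52, 3.61, 3.17 and 1.84 CPM in fl/fl and 1.66, 1.46, 1.62, 1.41 and 2.15 CPM in knockout livers. The lowest fl/fl mouse lay under the highest knockout mouse. The log2 fold change was -0.90 ± 0.25 (adjusted p = 0.0251, edgeR), from 11 to 31 counts per library. Leaving out fl/fl replicate 1 or 3, or knockout replicate 3 or 5, each ended the call, with adjusted p of 0.0504 to 0.0641. The call was also lost in the joint fit of all libraries (-0.90, adjusted p = 0.0689, edgeR). On the log2(TPM + 0.5) scale the value was -0.19 (adjusted p = 0.596, limma), from group means of 0.98 and 0.81 TPM. Knockout replicate 4 had the highest TPM of its group, 1.44, from 12 counts and an effective length of 1062 bases. With inducible deletion the log2 fold changes were -0.28 ± 0.35 (adjusted p = 0.634) and 0.23 ± 0.22 (adjusted p = 0.396) in edgeR. The latter was called higher with plain library totals (0.61, adjusted p = 0.0255, edgeR) and in TPM (0.37, adjusted p = 0.0352, limma).

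Lgr5, the R-spondin receptor of pericentral hepatocytes, ran from 3.71 to 5.60 CPM in fl/fl and from 1.28 to 5.10 CPM in knockout livers of HFCFD2W, from 1.04 to 3.76 CPM and from 0.24 to 1.69 CPM in livers of HFCFD8W+T10D, and from 1.92 to 6.30 CPM against 2.65 to 5.49 CPM in those of HFCFD12W+T10W. The groups overlapped in all 3. The log2 fold changes were -0.64 (95% interval -1.27 to -0.00), -0.99 (-1.90 to -0.08) and 0.13 (-0.54 to 0.80), with edgeR adjusted p of 0.157, 0.127 and 0.75, and the interval in HFCFD8W+T10D also holds the value measured there for Oat.

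Since a call in 1 experiment and not in another does not show that they differ, the genotype effects were subtracted in a single edgeR fit of all 30 libraries. Between HFCFD8W+T10D and HFCFD2W, 2 genes had a more positive effect in the former and 1 a more negative effect, beside 4.45% and 6.79% of 12964 genes. Rnf43 differed by 1.67 ± 0.32 on the log2 scale (adjusted p = 0.000789), Rhbg by 0.77 ± 0.25 (adjusted p = 0.0447) and Slc1a2 by -0.64 ± 0.20 (adjusted p = 0.0324) in edgeR. Between HFCFD12W+T10W and HFCFD2W the same 3 genes were called, 2 more positive and 1 more negative, beside 13.4% and 17.3% of genes. There Rnf43 differed by 1.98 ± 0.31 (adjusted p = 3.12e-05), Rhbg by 1.18 ± 0.25 (adjusted p = 0.000769) and Slc1a2 by -0.97 ± 0.20 (adjusted p = 0.000523) in edgeR.

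These 2 differences share the mice of HFCFD2W. The values against HFCFD8W+T10D were near the threshold for Slc1a2 and Rhbg: leaving out single mice ended the call in 6 of 20 fits for Slc1a2 and in 14 of 20 for Rhbg, with adjusted p up to 0.0686 and 0.0912. Axin2 differed by 1.09 ± 0.43 between HFCFD12W+T10W and HFCFD2W (adjusted p = 0.0554, edgeR), and upper quartile scaling (1.22, adjusted p = 0.0333) or plain library totals (1.49, adjusted p = 0.0148) called it. Between the experiments that used the inducible Cre, 0 of the 9 genes differed in edgeR and in DESeq2, with 1 at an unadjusted p under 0.05 (Lgr5, 1.09 ± 0.53), beside 4.97% and 5.49% of genes called higher and lower. The effect on Oat did not differ by a called amount between any experiments, at 0.46 ± 0.32, 0.42 ± 0.32 and -0.04 ± 0.32, and that on Glul differed by -0.13 ± 0.21, -0.08 ± 0.21 and 0.05 ± 0.21.

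The fl/fl livers themselves differed between experiments. In HFCFD8W+T10D against HFCFD2W, 0 of the 9 genes were called higher and 3 lower by both edgeR and DESeq2, with 0 higher at an unadjusted p under 0.05, beside 22.2% and 21.5% of genes. Rnf43 fell from 22.7 ± 4.55 to 8.63 ± 2.57 CPM (SD, n = 5 mice each), a log2 difference of -1.39 ± 0.22 (adjusted p = 8.9e-06, edgeR). Lgr5 fell from 4.88 ± 0.81 to 2.19 ± 1.06 CPM (-1.15 ± 0.36, adjusted p = 0.0109, edgeR). Rhbg fell from 21.2 ± 4.85 to 15.04 ± 3.92 CPM (-0.49 ± 0.18, adjusted p = 0.0305, edgeR), a call that leaving out any of 6 of the 10 mice ended. The fl/fl livers of HFCFD2W stood alone at the top of the order of Rnf43 group means, and the other 5 groups, from 11.2 ± 1.49 down to 6.33 ± 1.97 CPM, overlapped at each step.

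In HFCFD12W+T10W against HFCFD8W+T10D, 2 of the 9 genes were higher in fl/fl livers and 0 lower by both edgeR and DESeq2, with 0 lower at an unadjusted p under 0.05, beside 6.31% and 5.12% of genes. Slc1a2 rose from 193 ± 25.02 to 301 ± 48.0 CPM (0.64 ± 0.14, adjusted p = 0.00289, edgeR) and Znrf3 from 7.38 ± 0.89 to 10.2 ± 1.34 CPM (0.47 ± 0.13, adjusted p = 0.0202, edgeR). The fl/fl mean of Slc1a2 was thus highest in HFCFD12W+T10W, while the knockout means of the inducible experiments, 141 ± 25.5 and 113 ± 22.1 CPM, were lowest and overlapped. For Znrf3, leaving out any of 3 fl/fl mice ended the call, with adjusted p up to 0.0606.

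Within groups, mice that deviated in a gene of this set could deviate in another. After each group's mean log2 CPM was subtracted, the 36 pairs of genes had Pearson's r over 30 libraries with a median of 0.037, and 21 were above 0. The libraries share the scaling and the experiment, and these values are a description without a test. Glul and Slc1a2 had the highest r, at 0.72 with Spearman's rho = 0.56, and r of 0.70, 0.71 and 0.76 within the 3 experiments (n = 10 mice each). Without the 2 libraries farthest from the Glul median r was 0.64. Rnf43 and Tbx3 followed closely with r = 0.71 and had a higher rho, 0.69. Their r was 0.90, 0.75 and 0.32 within the experiments, and 0.64 without the 2 farthest libraries. Lgr5 and Rnf43 had r = 0.54, and 0.30 without them. Oat and Rhbg, which moved in opposite directions between genotypes, had r = 0.50 within groups, but 0.04 in HFCFD2W. The lowest pair was Rnf43 and Rhbg at -0.40, but its sign turned between experiments, at -0.25, -0.76 and 0.48, and it was -0.19 without the 2 farthest libraries.

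**Figure D3:**
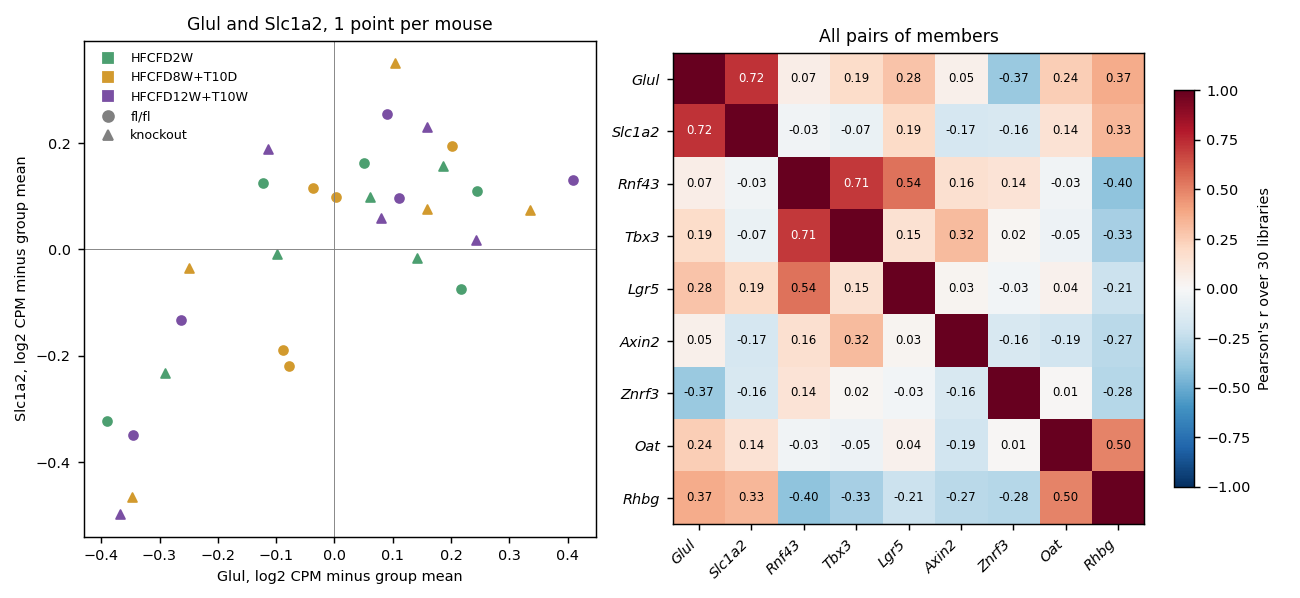
Left, deviations of Glul and Slc1a2 (log2 CPM minus the group mean) in each of 30 mice. Right, Pearson's r over the 30 libraries for all 36 pairs of the 9 genes. Glul with Slc1a2 (0.72) and Rnf43 with Tbx3 (0.71) are the highest pairs, and 21 of the 36 pairs lie above 0.

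The same measure was taken against a set of 12104 genes with a mean of at least 1 CPM, or among the 9, of which the 3 highest are named for each gene. Slc1a2 was followed most closely by Glul, then by Ormdl1 (0.70) and Mrps10 (0.69). Oat was followed by Lhpp (0.82), Themis (0.75) and C730002L08Rik (0.74), and Glul by Psmd12 (0.76), Ufsp2 (0.74) and Higd1a (0.74). Lhpp, which encodes a phosphatase, begins 34.2 kb from Oat on chromosome 7 with 1 protein-coding gene, Nkx1-2, between them. Rnf43 and Tbx3 shared their highest partner, Iffo2 (0.78 and 0.79), followed by Vav2 (0.76) and C77080 (0.73) for Rnf43 and by Hmga1 (0.77) and Asb8 (0.74) for Tbx3. Rhbg was followed by Vps35 (0.75), Bola3 (0.73) and Cfl2 (0.71), and Znrf3 by Ccdc93 (0.72), Prob1 (0.71) and Ralgapa1 (0.70). The low-count genes had the lowest maxima, at 0.70 with Brpf1 for Axin2, before Ptcd1 (0.66) and Pgs1 (0.66), and 0.67 with Stx17 for Lgr5, before Man2a2 (0.66) and Zfp235 (0.65).

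The 9 genes were set beside other genes of the lobule and the pathway. Of 16 other pericentral hepatocyte genes, 0, 1 and 3 were called higher and 7, 3 and 6 lower in the 3 experiments, with median log2 fold changes of -0.42, -0.34 and -0.21. Of all genes 8.6%, 10.3% and 27.4% were called higher and 8.09%, 6.85% and 23.8% lower, against which this and the following counts are to be read. Cyp2e1, a xenobiotic-metabolizing cytochrome of the central zone, was 11511 ± 587 CPM in fl/fl and 10994 ± 2376 CPM in knockout livers of HFCFD2W (-0.07, adjusted p = 0.771, edgeR), and fell in HFCFD8W+T10D (-1.28 ± 0.32, adjusted p = 0.017, edgeR) and HFCFD12W+T10W (-1.37 ± 0.14, adjusted p = 7.47e-06, edgeR). Nr1i3, the nuclear receptor CAR, had log2 fold changes of -0.23 (adjusted p = 0.241), -1.37 (adjusted p = 0.000121) and -1.49 (adjusted p = 9.19e-07) in edgeR. For both, the effect in HFCFD12W+T10W differed from that in HFCFD2W, by -1.35 ± 0.33 and -1.30 ± 0.20 (adjusted p = 0.00249 and 3.06e-05, edgeR), as it did for Slc1a2. Other genes of this list went otherwise. Lect2, Aldh3a2 and Cldn2 were called lower in HFCFD2W only (-0.53, -0.66 and -0.60, adjusted p = 0.00279, 0.0127 and 0.00273, edgeR). Gulo and Slc13a3 were called higher in HFCFD12W+T10W only (0.55 and 0.83, adjusted p = 0.00117 and 0.000543, edgeR).

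Lhpp fell with Oat in HFCFD2W (-1.02 ± 0.12, adjusted p = 0.000121, edgeR) and HFCFD12W+T10W (-0.79 ± 0.15, adjusted p = 0.000746, edgeR), and was at -0.57 ± 0.20 in HFCFD8W+T10D (adjusted p = 0.0658, edgeR). Slc1a4, a neutral amino acid transporter related to Slc1a2, went against Slc1a2 in the inducible experiments. It was 5.31 ± 1.16 CPM in fl/fl and 2.87 ± 1.42 CPM in knockout livers of HFCFD2W, called lower at an adjusted p of 0.049 in edgeR. It rose in HFCFD8W+T10D (1.44 ± 0.25, adjusted p = 0.00234, edgeR) and HFCFD12W+T10W (2.26 ± 0.19, adjusted p = 1.45e-06, edgeR).

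Of 14 periportal hepatocyte genes, 4, 3 and 2 were called higher and 2, 3 and 8 lower in the 3 experiments, with medians of 0.06, 0.13 and -0.76. The urea cycle enzyme Cps1, the portal counterpart of Glul in ammonia removal, was at -0.15 in HFCFD2W (adjusted p = 0.426, edgeR) and fell by 1.37 and 1.39 on the log2 scale in the inducible experiments (adjusted p = 0.000156 and 5.98e-06, edgeR). Arg1, the enzyme that releases urea and ornithine, was at -0.21 (adjusted p = 0.114), -0.44 (adjusted p = 0.0262) and -1.03 (adjusted p = 4.46e-06) in edgeR. Cdh1, the epithelial cadherin, rose from 3.95 ± 1.10 to 51.6 ± 5.85 CPM in HFCFD12W+T10W (3.75 ± 0.15, adjusted p = 8.32e-09, edgeR), where cholangiocyte markers also rose, and in HFCFD8W+T10D (1.71 ± 0.26, adjusted p = 0.000995, edgeR), but not by a called amount in HFCFD2W (0.51, adjusted p = 0.121, edgeR). Which cells made Cdh1 was not tested. Pigr, the polymeric immunoglobulin receptor, was at 0.54 (adjusted p = 0.000796), 0.12 (adjusted p = 0.753) and -1.28 (adjusted p = 2.12e-05) in edgeR.

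The ligands were near the limit of detection. Of 8 Wnt ligands and R-spondins, 2, 4 and 5 had enough counts to be tested in the 3 experiments, and 0, 0 and 3 were called higher and 0 lower in edgeR. In HFCFD2W and HFCFD8W+T10D 0 were at an unadjusted p under 0.05, and 0 were called by DESeq2 or limma. Wnt2, the central vein ligand, was between 1.79 and 2.94 CPM in the group means and called in no experiment (0.55, -0.45 and -0.12, adjusted p = 0.272, 0.355 and 0.739, edgeR). Wnt9b, the other endothelial ligand of the central vein, was tested only in HFCFD12W+T10W (0.77 ± 0.48, adjusted p = 0.203, edgeR). Rspo3, which both endothelial and stellate cells make, rose there from 3.77 ± 0.63 to 5.45 ± 0.82 CPM (0.58 ± 0.16, adjusted p = 0.00943, edgeR). Wnt4 and Wnt5a rose from 1.30 ± 0.42 to 4.69 ± 1.12 CPM and from 0.84 ± 0.36 to 3.99 ± 0.99 CPM (1.88 ± 0.25 and 2.28 ± 0.28, adjusted p = 4.49e-05 and 2.88e-05, edgeR). The endothelial markers of these livers summed to 125 to 226 CPM in fl/fl and 145 to 160.41 CPM in knockout mice, with 0 of 6 higher and 2 lower. Stellate cell and fibroblast markers rose as given above. Which cells made the ligands was not tested and cannot be read from whole liver.

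Of 9 Wnt receptors and co-receptors, 1, 0 and 3 were called higher and 4, 2 and 4 lower. Fzd4, a Frizzled receptor, fell in all 3 experiments (-0.83, -0.62 and -0.69, adjusted p = 0.00775, 0.0231 and 0.000312, edgeR), with genotypes overlapping in HFCFD8W+T10D. Fzd8 also fell in all 3 (-1.09, -0.84 and -0.48, adjusted p = 0.00159, 0.00414 and 0.0267, edgeR), with genotypes overlapping in HFCFD2W. Fzd1 fell in HFCFD2W (-0.58 ± 0.15, adjusted p = 0.0197, edgeR) and rose in HFCFD12W+T10W (1.00 ± 0.11, adjusted p = 9.98e-06, edgeR), a difference of 1.53 ± 0.18 (adjusted p = 1.14e-06, edgeR). In HFCFD12W+T10W the co-receptor Lrp5 rose (0.69 ± 0.10, adjusted p = 8.22e-05, edgeR) and the R-spondin receptor Lgr4, at 62.9 ± 4.94 CPM in fl/fl livers against 3.80 ± 1.76 CPM of Lgr5, fell (-0.77 ± 0.12, adjusted p = 0.000211, edgeR).

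Of 15 genes for β-catenin, its partners and TCF factors, 14 were tested and 0 were called in HFCFD2W and HFCFD8W+T10D in edgeR, with 2 and 1 at an unadjusted p under 0.05, while other settings called up to 1 higher and 1 lower. In HFCFD12W+T10W 2 were called higher and 2 lower. Ctnnb1, β-catenin itself, was 195 ± 12.7 CPM in fl/fl and 229 ± 4.71 CPM in knockout livers there (0.28 ± 0.06, adjusted p = 0.00327, edgeR) and was at 0.01 and 0.11 in the other experiments. Tcf7 rose (1.10 ± 0.17, adjusted p = 0.000202, edgeR), and the co-activator Bcl9l and the destruction complex member Apc fell (-0.53 ± 0.09 and -0.31 ± 0.09, adjusted p = 0.000508 and 0.012, edgeR). With plain library totals 6 of the 14 were called higher and 0 lower, and in TPM 7 and 0. Plain library totals called 7049 of all 12463 genes higher in that comparison.

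Of 10 feedback targets and inhibitors, 3, 4 and 4 were tested. Notum, a Wnt-inactivating enzyme and Wnt target, fell in HFCFD2W (-0.49 ± 0.15, adjusted p = 0.036, edgeR) and HFCFD12W+T10W (-0.28 ± 0.09, adjusted p = 0.0251, edgeR). It was at -0.50 ± 0.20 in HFCFD8W+T10D (adjusted p = 0.104, edgeR). Its genotypes overlapped in HFCFD12W+T10W, where plain library totals put the median log2 fold change of all genes at 0.38. The feedback gene Nkd1 was at -0.82, -0.21 and 0.31 without a call (adjusted p = 0.061, 0.619 and 0.206, edgeR). The secreted antagonists Dkk3 and Frzb rose in HFCFD12W+T10W, from 1.46 ± 0.31 to 8.81 ± 1.83 CPM and from 3.83 ± 1.21 to 13.3 ± 1.35 CPM (2.63 ± 0.20 and 1.84 ± 0.18, adjusted p = 6.85e-07 and 5.31e-06, edgeR), in the libraries in which stellate cell and fibroblast markers rose. Which cells made these antagonists was not tested.

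**Figure D4:**
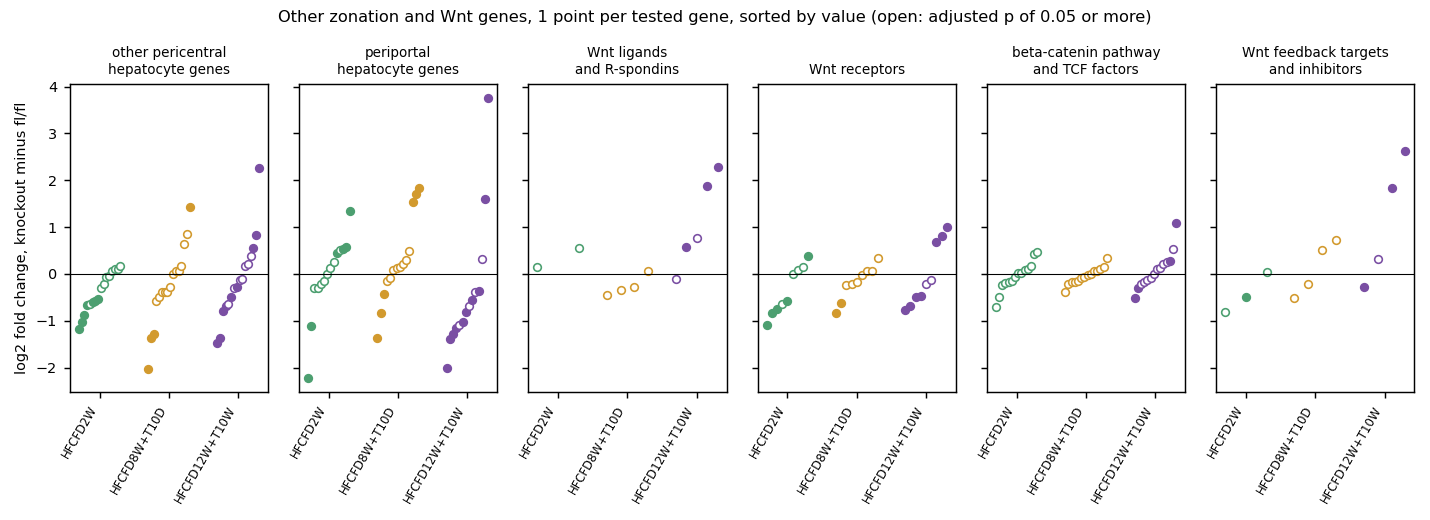
Log2 fold change of knockout against fl/fl livers for each tested gene of 6 other lists in the 3 experiments, sorted by value, with filled points for an adjusted p under 0.05 in edgeR. Pericentral genes lean below 0 in HFCFD2W (7 of 16 lower), and the ligands and secreted inhibitors called higher lie in HFCFD12W+T10W.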

How the data were processed

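RNA was extracted from whole liver and made into stranded poly(A) libraries, 1 per mouse, and the labels call the replicates biological. The submitters' processing notes name Trimmomatic 0.36, STAR 2.5.1, Picard 1.84, RSEM 1.2.22, DESeq2 and the build mm10. The authors deposited RSEM expected counts per gene, per library and as a table (the largest difference between them was 0), and TPM per library. Further deposited tables hold TMM-scaled CPM (a signal, for genes that passed the authors' filter) and RPKM, the latter not used here.

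Expected counts were rounded. With R 4.3.3 and edgeR 4.0.16, genes were filtered by filterByExpr, scaled by TMM and compared by the quasi-likelihood F test, with genotype alone in each experiment, or 6 group means over 30 libraries for differences between experiments and between fl/fl groups. Adjusted p are Benjamini-Hochberg values over all genes tested. CPM per mouse come from the scaling of all 30 libraries, with a prior count of 2 for log2 values. The steps were tested on simulated data.

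Alternatives were no filter, DESeq2 1.42.0, upper quartile scaling, robust quasi-likelihood, limma 3.58.1 on log2 of the deposited CPM plus 1 or TPM plus 0.5 or 0.1, the joint fit, a block for the replicate number, leaving out each mouse, adjusted p under 0.01, and a fold over 2 as in the study. Plain library totals, and Rhbg summed with Gm38392, were added after seeing the data. The genes and lists were chosen with earlier results of these data known. Besides the 9 genes and Cebpa, the text names Wnt2, Wnt9b, Rspo3, of each list the up to 4 genes with the smallest adjusted p in any genotype comparison, and for each of the 9 the 3 genes most correlated with it. Nkx1-2, Gm38392 and Fgfr2 were named for their position. Lect2, Aldh3a2, Cldn2, Gulo, Slc13a3 and Fzd8 were named for their calls across the experiments, after seeing the data. Gene identifiers are those of GENCODE M21. Of the lymphocyte markers 0, 2 and 3 were tested in HFCFD2W, HFCFD8W+T10D and HFCFD12W+T10W and 0, 0 and 3 called higher. Of 5 macrophage markers 2, 3 and 4 were called higher, and of 6 endothelial markers 0 higher and 0, 1 and 2 lower.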

Additional observations from a re-analysis of the deposited data

Results flagged for a closer look

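The genotype effect differed between experiments, by a test of the difference in the joint edgeR fit, for 3 of the 9 genes. Against HFCFD2W, the log2 effect in HFCFD8W+T10D was higher by 1.67 for Rnf43 and by 0.766 for Rhbg, and differed by -0.645 for Slc1a2. In HFCFD12W+T10W it was higher by 1.98 for Rnf43 and by 1.18 for Rhbg, and differed by -0.968 for Slc1a2. For Rnf43 the knockout groups of the 3 experiments overlapped and the fl/fl group of HFCFD2W lay above the other fl/fl groups. For Slc1a2 and Rhbg the knockout and fl/fl means moved apart. Of all genes, 4.45% had an effect called higher and 6.79% one called lower in the former of these comparisons, and 13.4% and 17.3% in the latter. The calls of Slc1a2 and Rhbg for HFCFD8W+T10D ended in 6 and 14 of 20 fits with a mouse left out. Cre line, feeding time, tamoxifen and batch of mice cannot be told apart in these differences.

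In 2 of 54 groups of 5 mice, a mouse lay far from the other 4 by Dixon's test on log2 CPM, which chance does in about 1 of 20 groups. Znrf3 was lowest, at 5.94 CPM, in fl/fl replicate 1 of HFCFD2W, and Tbx3 was lowest, at 5.28 CPM, in fl/fl replicate 3 of HFCFD12W+T10W. Without that mouse the log2 fold change of Tbx3 in HFCFD12W+T10W was -1.05.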

How the results depend on the processing

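The counts of the 9 genes called moved as follows, and otherwise stayed within 1.5 times. With a fold over 2, 0 were higher in HFCFD2W and 1 lower in HFCFD8W+T10D. In TPM (either pseudocount), 2 were lower in HFCFD2W, 1 lower in HFCFD8W+T10D and 4 higher in HFCFD12W+T10W, as were 4 with plain library totals. At an adjusted p under 0.01, 2 were lower in HFCFD2W, 1 higher and 0 lower for HFCFD8W+T10D minus HFCFD2W, and 1 called in each fl/fl comparison. For HFCFD8W+T10D minus HFCFD2W, 1 was higher without a filter, and 0 were lower with upper quartile scaling or plain library totals. The replicate numbers did not pair the mice: deviations of same-numbered mice correlated between -0.254 and 0.174 over 2000 genes, and 1, 1 and 0 mice correlated best with their own number. With replicate number as a block, 1 was higher and 0 lower for HFCFD8W+T10D minus HFCFD2W (Slc1a2 adjusted p = 0.06, Rhbg 0.0844, edgeR), Axin2 in HFCFD2W was -0.84 (adjusted p = 0.107, edgeR) and Glul there 0.0256. Leaving out a mouse gave 3 to 4 lower in HFCFD2W, 1 to 2 higher and 0 to 1 lower for HFCFD8W+T10D minus HFCFD2W, 2 to 3 higher for HFCFD12W+T10W minus HFCFD2W, 2 to 3 lower in fl/fl livers of HFCFD8W+T10D against HFCFD2W, and 1 to 3 higher in those of HFCFD12W+T10W against HFCFD8W+T10D.

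Signs turned only for values without a call. In TPM, Glul was 0.0598, 0.00479 and 0.27 in the 3 experiments and Slc1a2 0.14 in HFCFD2W. With plain library totals, Glul was 0.27 in HFCFD12W+T10W and Rnf43 0.0566 in HFCFD8W+T10D. Znrf3 was -0.00125 without a filter, -0.00530 in DESeq2 and -0.00725 in limma on CPM in HFCFD8W+T10D, and -0.00756 in DESeq2, -0.0335 in limma on CPM and -0.0233 in the joint fit in HFCFD12W+T10W. For HFCFD12W+T10W minus HFCFD8W+T10D, upper quartile scaling and plain library totals gave 0.0392 and 0.15 for Oat and 0.0513 and 0.19 for Znrf3. For HFCFD12W+T10W minus HFCFD2W they gave 0.0543 and 0.32 for Glul and 0.00712 and 0.27 for Znrf3. Plain library totals gave 0.0263 for Glul and 0.0828 for Znrf3 for HFCFD8W+T10D minus HFCFD2W, and 0.0892 for Znrf3 and 0.0208 for Tbx3 between their fl/fl livers. Leaving out a mouse turned signs for Rnf43 (-0.29 to 0.0245) and Znrf3 (-0.0788 to 0.0935) in HFCFD8W+T10D, Lgr5 (-0.0536 to 0.37) and Znrf3 (-0.0690 to 0.0654) in HFCFD12W+T10W, Glul (-0.0146 to 0.16), Oat (-0.21 to 0.13) and Znrf3 (-0.11 to 0.0656) for HFCFD12W+T10W minus HFCFD8W+T10D, Glul (-0.15 to 0.0307) for HFCFD12W+T10W minus HFCFD2W, Oat (-0.15 to 0.17) in fl/fl livers of HFCFD8W+T10D against HFCFD2W, and Glul (-0.00047 to 0.20) and Tbx3 (-0.36 to 0.0183) in those of HFCFD12W+T10W against HFCFD8W+T10D. The cause was not tested. Axin2 rested on 11 to 62 counts per library and Lgr5 on 2 to 65.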
